A study of Mus musculus with 24 samples.

Results

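The genes examined were Lgals1, Lgals3, Lgals3bp, Lgals4, Lgals8 and Lgals9, which were picked by gene symbol and make up 6 of the 56065 genes measured in mouse choroid. All 6 were above 0 in each of the 24 libraries and passed the filter on low values. The 24 libraries form 4 groups by genotype and laser, with 4 wild type and 4 Ceacam1-/- libraries not lasered and 9 wild type and 7 Ceacam1-/- libraries lasered. Ceacam1-/- mice lack exons 1 and 2 of Ceacam1 in every cell from conception, and the wild type mice were their littermates on a C57BL/6J background. The study's methods give mice of both sexes aged 6 to 8 weeks without stating the sex or age behind each library. Lasered eyes received 6 spots of 150 mW, 200 µm and 100 ms under ketamine and xylazine anaesthesia, a way to induce choroidal neovascularisation, the growth of new vessels from the choroid. The time between laser and tissue collection is not given in the sources used here. The choroid was taken as a complex with the retinal pigment epithelium (RPE) and the sclera, and total RNA was made into SMART-Seq libraries, which do not record the strand. The study's text counts the 4 and 4 unlasered samples as mice, while nothing states whether the lasered libraries came from separate or pooled animals, so their p-values measure only the spread between libraries, which may be technical.

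Galectins are small proteins that bind beta-galactosides on the glycans of cell surface and matrix glycoproteins. They are made in the cytosol, leave the cell by a route that bypasses the Golgi, and cross-link glycoproteins on immune, endothelial and epithelial cells. Galectin-1 (Lgals1) is of the prototype form and pairs with itself, galectin-3 (Lgals3) joins its sugar-binding domain to a flexible tail, and galectin-4, galectin-8 and galectin-9 (Lgals4, Lgals8, Lgals9) are tandem-repeat galectins with linked sugar-binding domains. Lgals3bp is not a galectin by structure. It encodes a secreted glycoprotein of the scavenger receptor family to which galectin-3 binds. In the eye, galectin-1 and galectin-3 are known from reactive glia, from activated microglia and macrophages and from work on new vessel growth. CEACAM1 itself is an adhesion receptor of the immunoglobulin family on endothelial, epithelial and myeloid cells.

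Values are normalized counts, that is, estimated reads of a gene divided by factors for library size and transcript length. They summed to between 23979741 and 27093809 in wild type libraries without laser (median 25759862) and to between 23819561 and 35094410 in Ceacam1-/- libraries without laser (median 26530696). With laser they summed to between 23717571 and 28563124 in wild type (median 26057571) and between 23704346 and 25940731 in Ceacam1-/- libraries (median 25282017). Fold changes are differences of log2(normalized count + 1), which understates changes of low genes, tested with limma over all genes and adjusted by the Benjamini-Hochberg method at a threshold of 0.05.

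Several libraries stood apart before any comparison was made. Genes of surface epithelium, such as Krt15, a keratin of the ocular surface, summed to at least 85961 in libraries 15, 19, 22, 27 and 28 and to at most 16523 in the other 19. Genes of photoreceptors summed to at least 480179 in libraries 14, 15, 18, 21 and 23. In the others they summed to between 2922 (library 25) and 235717 (library 27), so the libraries kept without this set were not free of these genes. Library 15 belonged to both sets, and libraries 14, 15 and 18 are 3 of the 7 Ceacam1-/- libraries with laser. Markers of the labelled tissue were present throughout, with endothelial sums from 8926 and RPE sums from 36815 upwards. Skeletal muscle genes were abundant too and reached sums of 924178. Each galectin result below is given with and without these sets where they alter it. The labels name no batch. Libraries 1 to 19 are those with laser and 21 to 28 those without, so library numbering and laser cannot be told apart.

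Ceacam1 was checked first. Without laser it stood at 958, 5027, 1242 and 4596 normalized counts in wild type libraries 21, 22, 26 and 27 and at 405, 505, 508 and 1171 in Ceacam1-/- libraries 23, 24, 25 and 28. With laser the wild type values ran from 774 to 8367 (median 996) and the Ceacam1-/- values from 67.8 to 905 (median 335). The Ceacam1-/- groups were lower on average, but both pairs of groups overlapped, through library 28 without laser and library 15 with it, and both of these were rich in surface epithelium genes. So were wild type libraries 22, 27 and 19, which held the 3 highest wild type values (5027, 4596 and 8367). The log2 difference was -1.95 without laser (SE 0.60, exact permutation p = 0.0571, adjusted p = 0.999) and -2.17 with laser (SE 0.52, exact permutation p = 0.000175, adjusted p = 0.104). Gene totals do not show which exons the reads came from, and Ceacam2 is a close homologue, so reads of both can be hard to separate.

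Per kilobase of canonical transcript, Lgals1 was the most abundant of the 6 genes and Lgals4 the least. The median level over the 24 libraries was 14374 normalized counts per kilobase for Lgals1, 5547 for Lgals3, 1310 for Lgals3bp, 1094 for Lgals9, 538 for Lgals8 and 73.2 for Lgals4. Lgals1 held 50.9% of the summed normalized counts of the 6 genes. The 6 genes together ranged from 8345 to 18807 normalized counts in wild type and from 8718 to 28165 in Ceacam1-/- libraries without laser, against 26113 to 66337 and 11081 to 43627 with laser. The wild type groups did not overlap in this sum, and the Ceacam1-/- groups did.

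**Figure D1:**
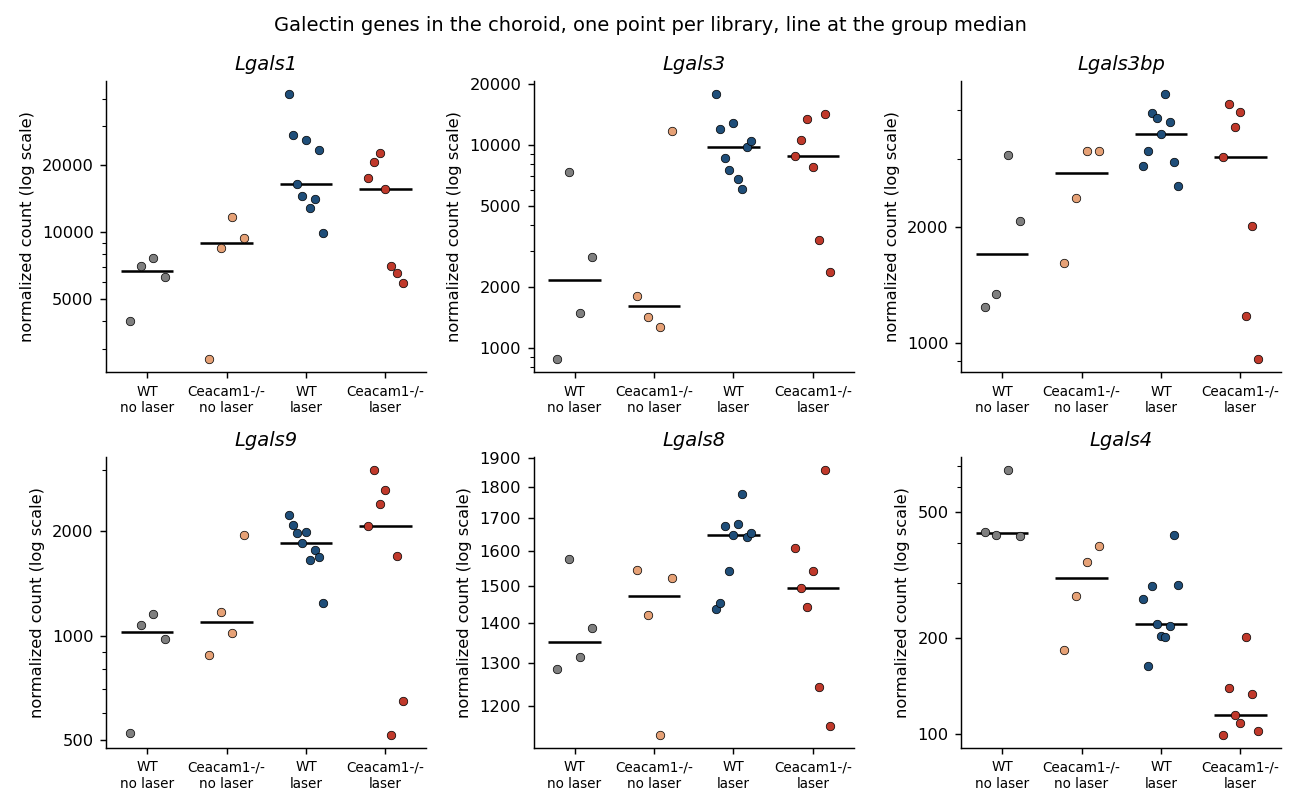
Normalized counts (log scale) of the 6 galectin genes in each library, in 4 groups by genotype and laser, with a line at each group median. Lgals1 and Lgals9 of all 9 wild type libraries with laser lie above the 4 without laser, while Lgals4 of all 4 Ceacam1-/- libraries without laser lies below their wild type counterparts.

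In wild type choroid, laser went with higher Lgals1 and Lgals3 and lower Lgals4. Lgals1 was 3.32-fold and Lgals3 3.25-fold higher in group means, and Lgals4 stood at 0.520 of its level without laser. These 3 of 6 genes passed the test, 2 higher and 1 lower, where 4.23% of the 19950 genes tested passed as higher and 1.05% as lower. In Ceacam1-/- choroid only Lgals4 passed, as lower, with 0.430 of its level without laser, where 2.07% of genes passed as higher and 1.65% as lower. The difference between the genotypes in the laser effect was tested directly and passed for none of the 6 genes, and for 0% of all genes. At an unadjusted p under 0.05 the interaction held 1241 genes, none of the 6 among them. The median log2 change of the 6 genes was 0.96 in wild type and 0.22 in Ceacam1-/- mice, against -0.10 and 0.02 over all genes tested. The Ceacam1-/- median includes the photoreceptor-rich libraries. Without them the Ceacam1-/- changes of Lgals1, Lgals3, Lgals3bp and Lgals9 were higher, as given below. Without the 5 photoreceptor-rich libraries, the wild type laser effect passed for 4 of the 6 genes and that in Ceacam1-/- mice for 3. In the same fit 1645 and 2923 of all 19596 genes passed. Without the surface epithelium-rich libraries only Lgals3 passed in each genotype, beside 491 and 587 of all 19831 genes.

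**Figure D2:**
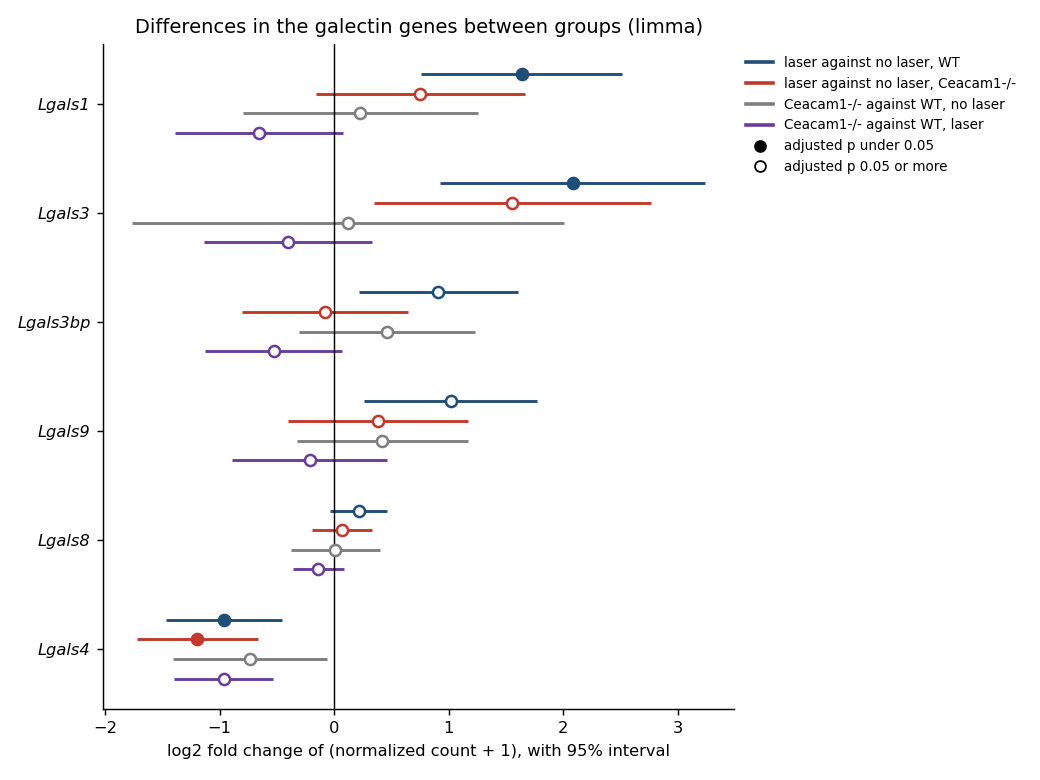
Log2 fold changes of the 6 genes in 4 comparisons with 95% intervals from limma, filled where the adjusted p was under 0.05. The filled points are Lgals1, Lgals3 and Lgals4 for laser in wild type and Lgals4 for laser in Ceacam1-/- mice. For Lgals4, the 4 intervals all lie below 0.

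Lgals1 lies on chromosome 15 at 78810875 to 78814670 on the plus strand (GRCm39, ENSMUSG00000068220), and its canonical transcript has 4 exons. Without laser it stood at 3978, 7055, 7692 and 6313 normalized counts in wild type libraries 21, 22, 26 and 27, a mean of 6259 ± 1622 (SD, n = 4). With laser the wild type values ran from 9987 to 41796 with a median of 16482, a mean of 20761 ± 10021 (SD, n = 9). All 9 libraries with laser were above all 4 without, with library 1 the highest and library 19 the lowest. The log2 change was 1.64 (SE 0.42, 95% interval 0.76 to 2.51, adjusted p = 0.0235), and the exact permutation test gave p = 0.0014, the smallest that 715 splits allow. Among Ceacam1-/- libraries without laser Lgals1 stood at 2702, 8530, 11706 and 9456, a mean of 8098 ± 3837 (SD, n = 4). With laser it was 17525, 20700, 22720 and 15751 in libraries 4, 5, 6 and 7 but 7048, 6543 and 5900 in libraries 14, 15 and 18. The Ceacam1-/- libraries with laser thus formed a higher and a lower set, and the lower set was the one rich in photoreceptor genes. Over all 7 the log2 change was 0.75 (SE 0.44, adjusted p = 0.353, exact permutation p = 0.200). Without the 5 photoreceptor-rich libraries it was 0.95 (adjusted p = 0.0818), with libraries 4 to 7 all above the 3 remaining libraries without laser. In wild type the call on Lgals1 was lost without library 21 (adjusted p = 0.121), without library 27 (adjusted p = 0.0676), with summed Y-linked genes as a covariate (adjusted p = 0.0523) and without the surface epithelium-rich libraries (log2 change 1.89, adjusted p = 0.102).

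Macrophage genes are given beside Lgals1. The 15 macrophage markers, of which Lyz2, the lysozyme of myeloid cells, made up 54.1%, summed to between 13314 and 27403 in wild type libraries without laser and between 63741 and 154470 with laser. The Ceacam1-/- sums lay between 14962 and 21500 without laser and between 20707 and 112939 with it, and libraries 14, 15 and 18 were the lowest of those with laser at 35643, 30365 and 20707. Of the 15 markers, 13 rose with laser in wild type (median log2 change 2.21) and 8 in Ceacam1-/- mice (median 1.55), where 4.23% and 2.07% of all genes passed as higher, with none of the 15 at 0 in all libraries. In bulk tissue more cells of a type and more RNA per cell cannot be told apart, and the part of macrophages in the galectin values was not tested. The genes whose pattern over the 24 libraries was most like that of Lgals1 among 15737 protein-coding genes were Sec61b, a subunit of the channel that passes proteins into the endoplasmic reticulum (Pearson r = 0.958), Cyba, a subunit of the phagocyte NADPH oxidase (r = 0.955), and Pfn1, the actin-binding profilin (r = 0.955). After group means were subtracted the r values were 0.955, 0.930 and 0.925, over libraries that differ in tissue makeup within a group as well as between groups.

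Lgals3 lies on chromosome 14 at 47605208 to 47623624 on the plus strand (ENSMUSG00000050335). It encodes the galectin that macrophages and many epithelia make in quantity. Wild type libraries 21, 22, 26 and 27, without laser, held 881, 7338, 1482 and 2812 normalized counts. With laser it ran from 6054 to 17724 (median 9704). Only library 22 reached into the range of the libraries with laser. The log2 change was 2.08 (SE 0.56, 95% interval 0.92 to 3.24, adjusted p = 0.0296), with an exact permutation p of 0.0042. Lgals3 stood at 1796, 1412, 1271 and 11702 in Ceacam1-/- libraries 23, 24, 25 and 28 without laser. With laser it ran from 2362 to 14199 (median 8797), with libraries 18 and 14 the lowest at 2362 and 3397 and library 15 the highest. Library 28 was thus above all but 2 Ceacam1-/- libraries with laser, and the log2 change of 1.56 did not pass (SE 0.58, adjusted p = 0.133, exact permutation p = 0.0758).

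In 3 of the 4 groups the library of highest Lgals3 was rich in surface epithelium genes, which summed to 357928 in library 22, 469281 in library 28 and 482870 in library 15. High Lgals3 was also found without them, as in Ceacam1-/- library 6 with laser, where Lgals3 stood at 13331 and these genes summed to 2482. Without the 5 surface epithelium-rich libraries the log2 change of Lgals3 was 3.06 in wild type (adjusted p = 0.0021) and 2.14 in Ceacam1-/- mice (adjusted p = 0.0141), so that it passed in both. Without library 28 alone the change in Ceacam1-/- mice was 2.30 (adjusted p = 0.0180). The wild type call was lost without library 1, 12, 21, 26 or 27, with adjusted p between 0.0506 and 0.173, and without the photoreceptor-rich libraries (log2 change 1.63, adjusted p = 0.0632), whereas in Ceacam1-/- mice the change without the photoreceptor-rich libraries passed (1.84, adjusted p = 0.0460). Genes most like Lgals3 were Cdkn3, a phosphatase of the cell cycle (r = 0.956), Cstb, the protease inhibitor cystatin B (r = 0.953), and Cdca8, a part of the chromosomal passenger complex of dividing cells (r = 0.950). Within groups these r values were 0.920, 0.919 and 0.913.

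**Figure D3:**
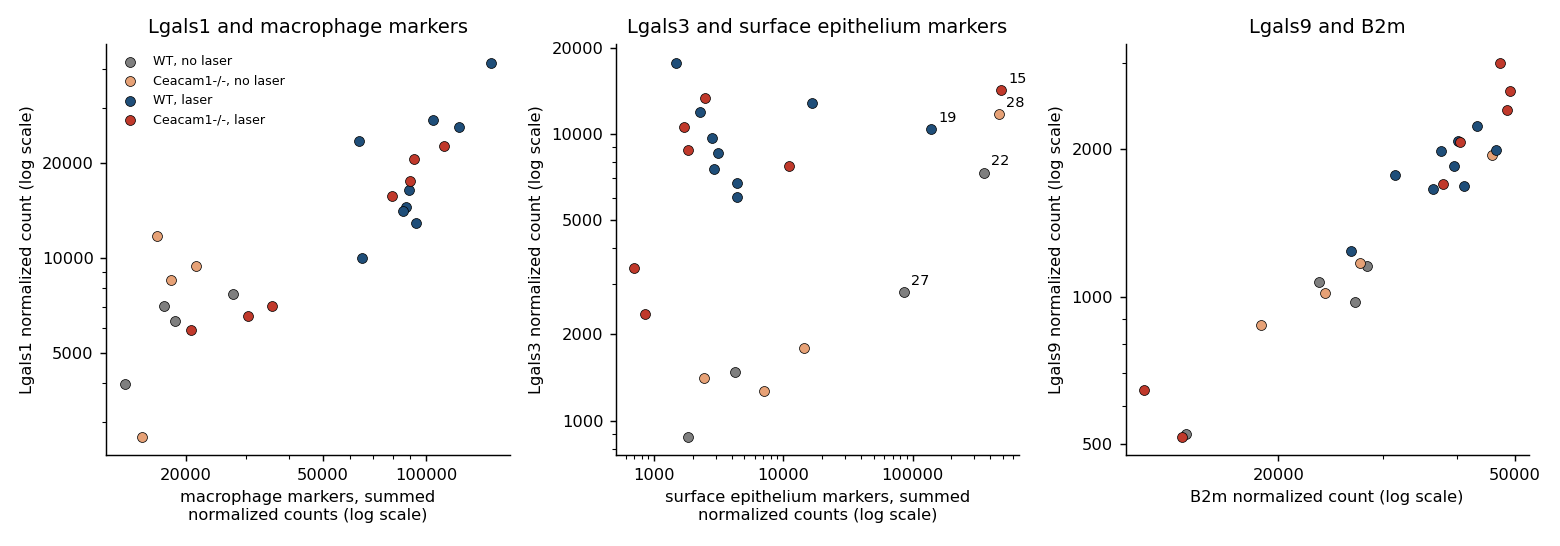
Each point is 1 of 24 libraries, coloured by group, all axes on a log scale in normalized counts. Lgals1 is plotted against summed macrophage markers, Lgals3 against summed surface epithelium markers with libraries 15, 19, 22, 27 and 28 numbered, and Lgals9 against B2m. Lgals9 rises along B2m across groups (r = 0.964), and libraries 22 and 28 carry high Lgals3 without laser at epithelial sums of 357928 and 469281.

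Lgals3bp, whose product is a secreted partner of galectin-3, lies on chromosome 11 at 118280716 to 118292918 on the minus strand (ENSMUSG00000033880). Without laser it stood at 1242, 1341, 3066 and 2072 normalized counts in wild type libraries 21, 22, 26 and 27, and with laser it ran from 2553 to 4403 (median 3481). Library 26 alone overlapped the libraries with laser. The log2 change of 0.91 (SE 0.34) did not pass after adjustment (adjusted p = 0.120), although the exact permutation test of this gene alone gave p = 0.0056. It passed without the photoreceptor-rich libraries (log2 change 0.73, adjusted p = 0.0302). The Ceacam1-/- libraries stood at 1615, 2369, 3145 and 3148 without laser and ran from 913 to 4159 with laser (median 3040). Its lowest values with laser were 913, 1179 and 2014 in libraries 18, 14 and 15, as for Lgals1. The log2 change was -0.08 (SE 0.35, adjusted p = 0.918), and without the photoreceptor-rich libraries it was 0.36 (adjusted p = 0.326), the opposite sign. Genes most like Lgals3bp by Pearson r were Cnn2, an actin-binding calponin (r = 0.920), Itpripl2 (r = 0.913) and Npc2, which carries cholesterol out of lysosomes (r = 0.912). Their Spearman rank correlations with Lgals3bp were lower, at 0.819, 0.796 and 0.767.

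Lgals9, which encodes a ligand of the immune receptor TIM-3 and is known as an interferon-responsive gene, lies on chromosome 11 at 78853800 to 78875798 on the minus strand (ENSMUSG00000001123). Without laser it stood in wild type libraries 21, 22, 26 and 27 at 524, 1071, 1155 and 978 normalized counts, a mean of 932 ± 281 (SD, n = 4). With laser it ran from 1242 to 2234 (median 1851), a mean of 1833 ± 291 (SD, n = 9). All 9 libraries with laser were above all 4 without, and the means differed by 1.97-fold. The exact permutation test gave p = 0.0014, the smallest it allows, whereas the change over all genes did not pass (log2 change 1.02, SE 0.37, adjusted p = 0.108). In wild type 4.50% of genes, 2 of these 6 among them, had all libraries with laser above all without, and 1.75% had all below.

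Lgals9 stood at 878, 1174, 1019 and 1948 in Ceacam1-/- libraries 23, 24, 25 and 28 without laser. With laser it was 2071, 3007, 2403 and 2630 in libraries 4 to 7, above every library without laser, but 519, 1698 and 646 in libraries 14, 15 and 18. The log2 change over all 7 was 0.38 (SE 0.38, adjusted p = 0.602, exact permutation p = 0.503). Without the photoreceptor-rich libraries it was 0.92 and passed (adjusted p = 0.00588), as it did in wild type (0.76, adjusted p = 0.0133). None of the 6 genes separated the Ceacam1-/- groups fully in either direction, where 1.17% of genes had all libraries with laser above all without and 0.962% all below.

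By Pearson r, Lgals9 followed B2m more closely than any other gene of the 15737. B2m encodes beta-2-microglobulin, the light chain of MHC class I molecules, and its r with Lgals9 was 0.964 over the 24 libraries and 0.964 within groups. Next were Shisa5 (r = 0.948) and Ube2l6, the conjugating enzyme of the interferon-induced modifier ISG15 (r = 0.946). In the fit of all 24 libraries B2m itself did not pass in wild type (log2 change 0.75, adjusted p = 0.220) or in Ceacam1-/- mice (0.18, adjusted p = 0.808). With laser B2m ran from 40464 to 49172 in Ceacam1-/- libraries 4 to 7. In the photoreceptor-rich libraries 14, 15 and 18 it stood at 13754.5, 37881 and 11879. Its change without the photoreceptor-rich libraries is not given here. The 250 bases before the Lgals9 start at chr11:78875799-78876048 (GRCm39, minus strand) are shown because Lgals9 was 1 of the 2 genes that separated the wild type groups fully. The 6 sets of letters below were searched on both strands of the same window of 21770 protein-coding genes. They were the STAT site TTCNNNGAA (in 7.70% of windows), the interferon response element, GAAA followed by any 2 bases and GAAA again (3.32%), the AP-1 site TGANTCA (6.17%), the cyclic AMP element TGACGTCA (1.70%), the GC box GGGCGG (36.3%) and the TATA box TATAAA (11.9%). The Lgals9 window overlaps no annotated exon, has 59.2% G and C and held none of them, so no base is in capitals. The window of Lgals3 held 2 GC boxes, 30 and 19 bases before its start, and those of Lgals3bp, Lgals4 and Lgals8 held no match. The windows of Lgals3, Lgals4 and Lgals8 overlap 3, 19 and 18 annotated exons. The absence of a match says only that these letters are not in the window:
Lgals9: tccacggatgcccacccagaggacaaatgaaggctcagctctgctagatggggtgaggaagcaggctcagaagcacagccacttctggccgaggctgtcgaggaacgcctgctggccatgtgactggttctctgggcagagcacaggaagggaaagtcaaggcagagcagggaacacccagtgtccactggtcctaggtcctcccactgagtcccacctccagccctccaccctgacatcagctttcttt

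Lgals8 varied least of the 6 genes. It encodes a tandem-repeat galectin that binds integrins and, inside cells, damaged endosomes, and lies on chromosome 13 at 12454282 to 12479840 on the minus strand (ENSMUSG00000057554). Its last part overlaps Heatr1 on the opposite strand, and unstranded reads of the overlap cannot be assigned. In wild type libraries 21, 22, 26 and 27 it stood at 1286, 1577, 1315 and 1387 normalized counts, and with laser it ran from 1436 to 1777 (median 1647). In Ceacam1-/- libraries 23, 24, 25 and 28 it stood at 1545, 1421, 1139 and 1520, and with laser it ran from 1158 to 1857 (median 1495). All groups overlapped. The log2 change with laser was 0.21 in wild type (95% interval -0.04 to 0.46, adjusted p = 0.326, exact permutation p = 0.0070) and 0.07 in Ceacam1-/- mice (95% interval -0.19 to 0.33, adjusted p = 0.802). Genes most like it were Cpd, a carboxypeptidase of the secretory route (r = 0.898), Tmod3, which caps actin filaments (r = 0.871), and Nab1, a corepressor of EGR factors (r = 0.857).

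Lgals4 was the gene that fell. It encodes a galectin known mainly from the gut epithelium, where it binds sulfated glycolipids, and lies on chromosome 7 at 28531804 to 28541281 on the plus strand (ENSMUSG00000053964), 3.355 Mb from Ceacam1 on the same chromosome. In wild type libraries 21, 22, 26 and 27 it stood at 434, 424, 680 and 420 normalized counts, a mean of 489 ± 127 (SD, n = 4). In Ceacam1-/- libraries 23, 24, 25 and 28 it stood at 184, 272, 350 and 391, a mean of 299 ± 91.3 (SD, n = 4). All 4 Ceacam1-/- libraries were below all 4 wild type libraries. With laser it ran from 164 to 423 (median 222) in wild type, a mean of 254 ± 77.1 (SD, n = 9), and from 99.6 to 202 (median 115) in Ceacam1-/- libraries, a mean of 129 ± 35.7 (SD, n = 7). The group means thus descended from wild type without laser through Ceacam1-/- without laser and wild type with laser to Ceacam1-/- with laser. The 2 middle groups of this order overlapped and were not compared directly.

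Lgals4 fell with laser in both genotypes. The log2 change was -0.96 in wild type (SE 0.24, 95% interval -1.47 to -0.46, adjusted p = 0.0211, exact permutation p = 0.0028) and -1.20 in Ceacam1-/- mice (SE 0.26, 95% interval -1.72 to -0.67, adjusted p = 0.0113, exact permutation p = 0.00606). The interaction was -0.23 (95% interval -0.96 to 0.50, adjusted p = 0.808). The wild type call was lost without library 21 (adjusted p = 0.0551) or 26 (adjusted p = 0.0913), and the Ceacam1-/- call without library 25 (adjusted p = 0.0718) and in a fit of only the compared libraries (adjusted p = 0.145). Without the surface epithelium-rich libraries the changes were -1.18 (adjusted p = 0.0875) and -1.07 (adjusted p = 0.0689).

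Between genotypes, Lgals4 was the only one of the 6 genes with an unadjusted p under 0.05, and it did not pass after adjustment. Without laser the log2 difference was -0.73 (SE 0.30, 95% interval -1.40 to -0.06, adjusted p = 0.999), and the exact permutation p of 0.0286 is the smallest that 4 against 4 libraries allow. Separation of this kind, with all Ceacam1-/- libraries lower, was found in 0.434% of 20057 genes. The adjusted test passed 0% of genes, with 307 at an unadjusted p under 0.05. The study's own test of unlasered choroid, DESeq2 with sex as a covariate, did report differentially expressed genes. In simulated data this comparison called 0 of 200 genes given a log2 change of 1 and 78 of 200 given a change of 2. The 0% therefore does not show that the genotypes were alike. With laser the log2 difference was -0.97 (SE 0.21, 95% interval -1.40 to -0.53, adjusted p = 0.0822), with an exact permutation p of 0.000262 against a smallest possible 8.7e-05. Of 19757 genes 0.0202% passed, none of the 6 among them, with 4479 at an unadjusted p under 0.05, and 0.0709% had all Ceacam1-/- libraries below all wild type libraries, which Lgals4 did not, since library 14 overlapped the wild type range. Leaving out the surface epithelium-rich libraries gave -0.95 (adjusted p = 0.107) and leaving out the photoreceptor-rich libraries gave -1.09 (adjusted p = 0.196).

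The values of neighbouring and muscle genes are given beside those of Lgals4. Ech1, a gene of fatty acid breakdown whose annotated end lies 129 bases before Lgals4 on the same strand, was chosen after its values were seen. It stood at 3775, 6723, 5427 and 5799 normalized counts in wild type libraries without laser and at 1685, 3769, 7137 and 3487 in Ceacam1-/- libraries without laser. With laser it ran from 3161 to 5613 in wild type and from 1019 to 2905 in Ceacam1-/- libraries, which did not overlap. Its log2 difference between genotypes with laser was -1.15 (SE 0.21, adjusted p = 0.0822, exact permutation p = 8.7e-05). Hnrnpl, an RNA-binding protein gene before Ech1 and also chosen after its values were seen, went the other way at 0.35 (SE 0.13, adjusted p = 0.167). It stood at 9929, 8558 and 9030 in the photoreceptor-rich Ceacam1-/- libraries 14, 15 and 18 with laser. Libraries 4 to 7 stood at 5547, 6339, 6472 and 6529, within the wild type range with laser of 5064 to 6699. The part of the photoreceptor-rich libraries in the Hnrnpl difference was not tested. The 8 muscle markers, led by the skeletal actin Acta1, had median sums of 441301 and 516534 in wild type and Ceacam1-/- libraries without laser and of 282385 and 94727 with laser. Without laser their median log2 difference between genotypes was -0.33. None of the 8 passed in a comparison, with a median log2 difference of -1.43 between genotypes with laser and all 8 at an unadjusted p under 0.05. Their part in the Lgals4 values was not tested. Lgals4 had no close match among other genes, with Fhip2b (r = 0.768 over 24 libraries, 0.551 within groups), Cimap1d (0.712 and 0.572) and Plin4, a lipid droplet protein of fat and muscle (0.707 and 0.182), the nearest.

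**Figure D4:**
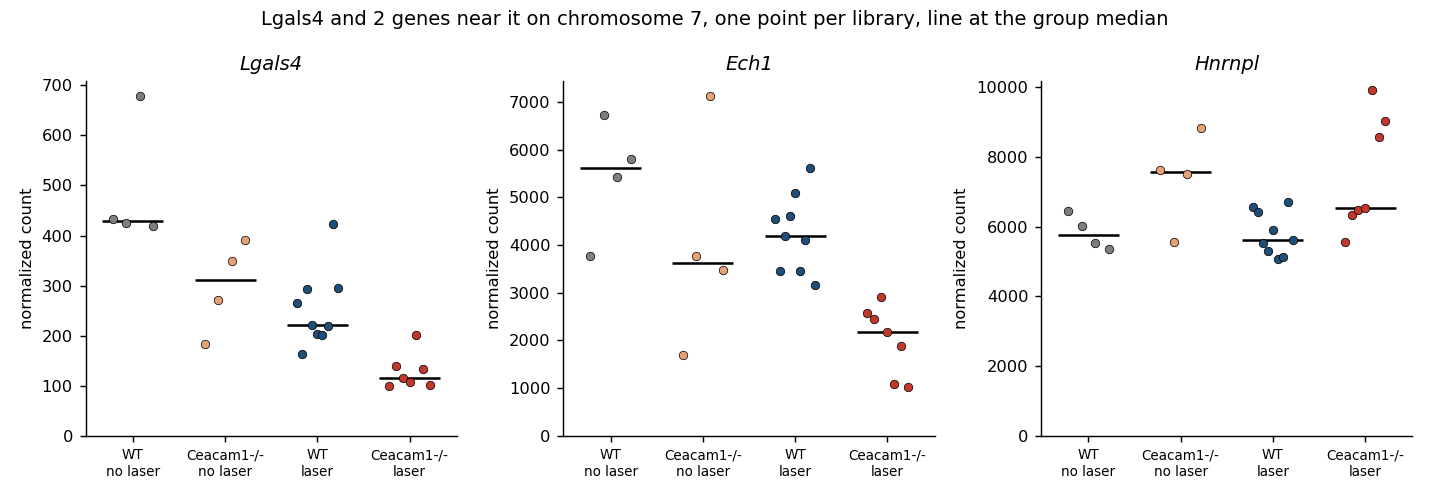
Normalized counts (linear scale from 0) of Lgals4 and of Ech1 and Hnrnpl, which lie before it on chromosome 7, by library and group with the group medians as lines. Ech1 of all 7 Ceacam1-/- libraries with laser lies below the 9 wild type libraries with laser, Lgals4 nearly so, and Hnrnpl does not.

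For the other 5 genes no difference between genotypes passed in either condition. Without laser the log2 differences were 0.23 for Lgals1, 0.12 for Lgals3, 0.46 for Lgals3bp, 0.01 for Lgals8 and 0.42 for Lgals9, each with an adjusted p of 0.999. The interval for Lgals3 ran from -1.77 to 2.01 and that for Lgals8 from -0.38 to 0.40, so the precision differed greatly between genes. Without the photoreceptor-rich libraries these differences turned negative for Lgals3 and Lgals8. When single libraries were left out they ran from -0.0138 to 0.69 for Lgals1, -0.63 to 0.68 for Lgals3 and -0.0385 to 0.11 for Lgals8. With laser the differences were -0.66 for Lgals1 (95% interval -1.39 to 0.08), -0.41 for Lgals3, -0.53 for Lgals3bp (95% interval -1.13 to 0.07), -0.14 for Lgals8 and -0.22 for Lgals9, with adjusted p between 0.259 and 0.695. Without the photoreceptor-rich libraries, of which 14, 15 and 18 are lasered, the difference stayed negative for Lgals8 (-0.08) but was 0.01 for Lgals1, 0.04 for Lgals3, 0.11 for Lgals3bp and 0.47 for Lgals9 (adjusted p = 0.355), none of which passed.

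Among themselves, Lgals3bp and Lgals9 were the most alike of the 15 pairs, with r = 0.85 over the 24 libraries and 0.84 within groups. Lgals1 and Lgals9 had r = 0.78 (0.70 within groups) and Lgals3 and Lgals9 also 0.78 (0.69 within groups). Lgals1 and Lgals3 had r = 0.70, which was 0.46 within groups. Lgals4 had r between -0.36 and -0.07 with the other 5, and between -0.14 and 0.14 within groups. These are descriptions over libraries that share 4 groups and differ in tissue makeup.

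Other members of the family gave no call. Of Lgals2, Lgals7, Lgals12, Lgalsl and Grifin, all 5 were tested and none passed in any comparison, and an unadjusted p under 0.05 was found for 1 of them, between genotypes with laser, where 4479 of 19757 genes had such a p. Lgalsl, which encodes a galectin-related protein thought not to bind sugar, had a median of 515 normalized counts per kilobase, near that of Lgals8, and its highest values of 7757, 5979, 5187, 4761 and 4538 were in the 5 photoreceptor-rich libraries. Lgals7, a galectin of stratified epithelium, lies 3.385 Mb from Ceacam1. It stood at 271, 194, 177 and 138 normalized counts in libraries 19, 28, 27 and 22 and at most at 23.3 in all others, and those 4 libraries were rich in surface epithelium genes. The highest sum of these genes was in library 15, where Lgals7 stood at 23.3. Grifin, a lens protein of galectin fold, had a median of 49.4 per kilobase. Lgals2 and Lgals12 had medians of 13.4 and 5.88 per kilobase.

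Of 22 glycoproteins and adaptors known to bind galectins, 21 were tested, and 7 rose with laser in wild type and none fell, where 4.23% of all genes passed as higher and 1.05% as lower. Their median log2 change was 0.88. The 7 were Havcr2, which encodes the galectin-9 receptor TIM-3 (log2 change 3.04, adjusted p = 0.000218), Trem2, a lipid-sensing receptor of microglia and macrophages (2.84), Itgam, the integrin chain CD11b (2.26), Ptprc, the leukocyte phosphatase CD45 (2.21), Spn, the leukocyte sialomucin CD43 (1.88), Cd44, the hyaluronan receptor (1.58), and P4hb, protein disulfide isomerase (1.01). Havcr2 stood at no more than 58.6 normalized counts without laser and ran from 135 to 240 with laser in wild type, with no overlap. Ptprc and Itgam are also in the macrophage list, and Havcr2, Trem2 and Spn are known from leukocytes. The part of leukocytes in these values was not tested.

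In Ceacam1-/- mice 2 of the 21 rose with laser, Havcr2 (1.85, adjusted p = 0.0336) and Ptprc (1.55, adjusted p = 0.00825), with a median of 0.30 and none lower, where 2.07% of all genes passed as higher. The summed values of the list with laser were 34004, 49277 and 37676 in Ceacam1-/- libraries 14, 15 and 18 and 77551 to 87707 in libraries 4 to 7, and the part of these 3 libraries in the counts was not tested. None passed between genotypes or in the interaction, where an unadjusted p under 0.05 was found for 10 with laser, for 0 without laser and for 4 in the interaction. Over all genes such a p was found for 4479 of 19757 with laser, 307 of 20057 without laser and 1241 of 19950 in the interaction. Of the genes that passed in no comparison, the most abundant were Lamp1 and Lamp2, the glycoproteins of the lysosomal membrane, and the integrin chains Itgb1 and Itgav. With laser their log2 changes in wild type were 0.47, 0.70, 0.88 and 0.79, with adjusted p between 0.124 and 0.285. Calcoco2 was below the filter in every comparison, and 20 of the 22 genes were tested between genotypes without laser.

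The 13 enzymes that build or cap the glycans galectins read gave 1 call in each direction, the same in both genotypes, beside 4.23% of all genes called higher and 1.05% lower in wild type and 2.07% and 1.65% in Ceacam1-/- mice. Gcnt1, which branches core O-glycans, rose with laser by a log2 change of 1.19 in wild type (adjusted p = 0.0251) and 1.26 in Ceacam1-/- mice (adjusted p = 0.0323). St3gal3, which caps galactose with sialic acid, had log2 changes of -0.93 (adjusted p = 0.00245) and -0.89 (adjusted p = 0.0100), both passing as lower. In wild type St3gal3 ran from 591 to 861 normalized counts without laser and from 286 to 518 with laser, without overlap. The more abundant St3gal6, Mgat1, B4galt1 and Mgat2 did not pass in either genotype, nor did Mgat5, which builds the branched N-glycans that galectin-3 binds (log2 change 0.17 in wild type). Neither genotype comparison called any of the 13, with 2 at an unadjusted p under 0.05 without laser and 4 with laser, where 307 of 20057 and 4479 of 19757 genes had such a p.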

How the data were processed

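The deposited values are a signal: normalized counts that the authors made by quantifying SMART-Seq reads with Salmon 1.10.3 on GRCm39 and dividing the gene estimates by DESeq2 1.44.0 factors for library size and average transcript length, with FastQC 0.11.5 for quality control, per the labels and the study's methods. The methods state that 1 outlier library was removed without naming it. Whole reads could not be recovered, so no count test was run, and precision is shown by the spread between libraries. The range of summed normalized counts in each group is given above, which is not the read depth.

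Groups and library numbers came from the sample labels. Gene names, positions and transcripts were taken from the GENCODE M39 annotation of GRCm39, which matched 99.1% of the 56065 identifiers. Genes with a mean of at least 10 over the libraries of a fit were tested with limma 3.58.1 (variance trend, R 4.3.3) on log2(value + 1). Laser effects and their interaction with genotype came from a model of all 24 libraries (19950 genes), and the genotype effect from separate models of the 8 unlasered (20057 genes) and 16 lasered libraries (19757 genes). Sex is not in the labels, so it was no covariate. P-values were adjusted by the Benjamini-Hochberg method over all genes tested. A two-sided exact permutation test of group labels, unadjusted, was added for each gene of interest. The method was tested on simulated data. Intervals are 95% intervals from limma.

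Alternatives were other pseudocounts (0.5 and 10), no filter and a mean of at least 50, quantile and upper-quartile scaling, limma without trend, array weights, summed Y-linked genes as a covariate, fits of only the compared (for genotype, of all) libraries, leaving out each library in turn, and leaving out the libraries rich in surface epithelium or photoreceptor genes, the last 2 chosen after seeing the data. Named were the 6 genes, Ceacam1, every gene of the family, partner and enzyme lists that passed and up to 4 of the most abundant that did not, the leading marker of most cell types, and the 3 protein-coding genes of highest Pearson r with each of the 6 genes. Mgat5, Lgals7 and the genes said to be chosen after their values were seen stand outside that rule. The 6 genes and all lists were chosen with earlier results of these data known. Tables were handled and permutations run in Python 3.11.15 (numpy 2.4.6, pandas 2.3.3). Spearman rank correlations came from scipy 1.17.1, and plots were drawn with matplotlib 3.10.9. Some items are not reported here.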

Additional observations from a re-analysis of the deposited data

Results flagged for a closer look

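Of 48 groups of values screened for a library far from the others of its group, 11 held one. A rate of about 1 in 20 groups holds for normally distributed values and independent groups. Counts are often skewed and the groups share libraries, so 11 of 48 cannot be set against that rate. For the 6 genes these were Lgals3 in Ceacam1-/- library 28 without laser (11702 normalized counts, the others 1271 to 1796), Lgals4 in wild type library 26 without laser (680, the others 420 to 434) and Lgals4 in Ceacam1-/- library 14 with laser (202, the others 99.6 to 139). Ceacam1 stood at 1171 in Ceacam1-/- library 28 without laser (the others 405 to 508) and at 8367 in wild type library 19 with laser (the others 774 to 1776). Lgals7 stood at 194 in library 28 (the others 1.47 to 5.39), at 271 in library 19 (the others 0 to 13.2) and at 23.3 in Ceacam1-/- library 15 with laser (the others 0.916 to 7.29). Lgals12 stood at 50.7 in library 19 (the others 1.19 to 24.3). All values in libraries 15, 19 and 28 belong to libraries with surface epithelium sums of at least 138955, and the part of that tissue in them was not tested. Lgals2 stood at 29.4 in Ceacam1-/- library 25 without laser (the others 8.95 to 11.2), and Grifin at 125 in Ceacam1-/- library 24 without laser (the others 3.99 to 20.6).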

How the results depend on the processing

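The number of the 6 genes called for laser in wild type was 3, and it became 6 with array weights, 5 in a fit of only the compared libraries, and 1 (Lgals3) without the surface epithelium-rich libraries, ranging from 0 (without library 21) to 4 when single libraries were left out. For laser in Ceacam1-/- mice it was 1, and became 4 with array weights, 0 in a fit of only the compared libraries (Lgals4, adjusted p = 0.145) and 3 without the photoreceptor-rich libraries (without the surface epithelium-rich libraries it stayed 1, Lgals3 in place of Lgals4), ranging from 0 (without library 25) to 2 (without library 28). For genotype with laser it was 0, and 1 with array weights (Lgals4, adjusted p = 0.011). The counts for genotype without laser and for the interaction stayed at 0 under every alternative run. Over all genes, the 1053 calls for laser in wild type became 6505 with array weights, 2274 in a fit of only the compared libraries, 1645 without the photoreceptor-rich and 491 without the surface epithelium-rich libraries. The 742 for laser in Ceacam1-/- mice became 3551, 38, 2923 and 587 in the same order and 437 with no filter. The 4 for genotype with laser became 297 with array weights, 9 in a fit of all 24 libraries, 6 with no filter or without the surface epithelium-rich libraries and 2 without the photoreceptor-rich libraries or at a mean of at least 50. The 0 for genotype without laser became 1 with array weights or no variance trend. Leaving out single libraries gave 479 to 1257, 148 to 2488, 4 to 61 and 0 to 1 genes in these 4 comparisons. The Y-linked covariate took Lgals1 in wild type to an adjusted p of 0.0523. The sign turned for the following log2 values, none of which passed the test. With array weights these were Lgals3bp for laser in Ceacam1-/- mice (0.47), Lgals3 (0.52) and Lgals9 (0.0016) in the interaction, Lgals3 for genotype without laser (-0.41), and Lgals1 (0.0019), Lgals3 (0.0779) and Lgals9 (0.38) for genotype with laser. Without the photoreceptor-rich libraries they were Lgals3bp for laser in Ceacam1-/- mice (0.36), Lgals3 (0.22) and Lgals9 (0.15) in the interaction, Lgals3 (-0.18) and Lgals8 (-0.0749) for genotype without laser, and Lgals1 (0.0072), Lgals3 (0.0356), Lgals3bp (0.11) and Lgals9 (0.47) for genotype with laser. Without the surface epithelium-rich libraries they were Lgals3bp for laser in Ceacam1-/- mice (0.0717) and Lgals4 in the interaction (0.11), and with the Y-linked covariate Lgals8 for genotype without laser (-0.0017). When single libraries were left out, values crossed 0 for Lgals3bp (-0.29 to 0.15) and Lgals8 (-0.0311 to 0.12) for laser in Ceacam1-/- mice, Lgals3 in the interaction (-1.09 to 0.22), Lgals1 (-0.0138 to 0.69), Lgals3 (-0.63 to 0.68) and Lgals8 (-0.0385 to 0.11) for genotype without laser, and Lgals9 for genotype with laser (-0.37 to 0.0493). The cause was not tested. No paired analysis was possible because the groups share no replicate numbers. With 4 libraries in each group without laser, single libraries decided several calls, and values are limited by the spread between libraries, since read depth is not in the deposited values.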

Other observations

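Of the other cell type lists, 3 held a gene that rose with laser in wild type. Over all genes, 4.23% passed as higher with laser in wild type and 2.07% in Ceacam1-/- mice. Of 8 fibroblast genes, Col3a1, a fibrillar collagen chain (log2 change 2.50, adjusted p = 0.00957), Fn1, fibronectin (2.10, adjusted p = 0.00204), and Lum, the matrix proteoglycan lumican (1.90, adjusted p = 0.0309), rose in wild type, and Lum (2.11, adjusted p = 0.0310) and Fn1 (1.73, adjusted p = 0.0202) rose in Ceacam1-/- mice. Col1a1, the most abundant of that list, did not pass (1.11, adjusted p = 0.350). Vim, an intermediate filament gene of glia and of mesenchymal cells, rose in wild type (1.35, adjusted p = 0.0160). It was the only gene of the 5 on the glia list to pass in any comparison. The median log2 change of that list with laser was -0.14 in wild type and -0.16 in Ceacam1-/- mice. S100a8, a gene of neutrophils and activated myeloid cells, rose in both genotypes (2.37, adjusted p = 0.0129, and 3.25, adjusted p = 0.0032), while the neutrophil genes Ly6g, Mpo and Elane were under 10 in every library. Among the 3 neutrophil genes tested, only S100a8 passed. None of the 8 endothelial genes led by Plvap, the 6 RPE genes led by Ttr, the 8 photoreceptor genes, the 8 lens genes led by Cryaa, the 8 surface epithelium genes led by Krt15, the 8 muscle genes led by Acta1 or the 7 lymphocyte genes tested, led by Cd4, passed in any comparison. At an unadjusted p under 0.05, these lists held 2 endothelial and 2 muscle genes for laser in wild type, and 7 muscle, 5 RPE and 1 lens gene for laser in Ceacam1-/- mice, where 3993 and 3997 of all 19950 genes had such a p. The RPE genes had a median log2 difference of -1.48 between genotypes with laser, with 5 of 6 at an unadjusted p under 0.05, where 4479 of 19757 genes had such a p. In the same comparison this held for 4 of 8 photoreceptor genes (median 2.05) and 8 of 8 muscle genes (median -1.43). Among Ceacam1-/- libraries with laser the RPE sums were 36815 to 63238 in libraries 14, 15 and 18 and 159008 to 287475 in libraries 4 to 7.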
